A study of Homo sapiens with 10 samples.

Results

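Messenger RNA levels of 35 genes of the desmosomes, adherens junctions, tight junctions and gap junctions were followed across cell lines of human squamous cell carcinoma of the esophagus. The genes were taken by symbol, as the rows named for 1 of these 35 junction proteins in all 10 tables, and make up 35 of the 17372 named genes that all 10 tables list. PVRL1 and PVRL4 stand in the tables under those older names of nectin-1 and nectin-4. Each gene had 1 row per table. The unit is FPKM, fragments per kilobase of transcript, scaled to library size, which is a level per length. At 1 FPKM or more in all 10 libraries stood 29 of the genes, and 16 of them stood at 10 FPKM or more throughout. The level of each gene in each library is shown in the heat map of junction genes.

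The libraries came from a study of long non-coding RNAs under interferon control. In the first experiment KYSE450, KYSE180 and KYSE30 cells each gave 1 library after interferon-beta (IFN-β, a type I interferon) at 1000 IU/ml for 72 h and 1 untreated library, whose cells received saline buffer per the labels' protocols. In the second, KYSE180 and KYSE30 cells each gave 1 library after IRF1-AS knockdown (IRF1-AS is a non-coding transcript from the strand opposite IRF1, which encodes an interferon-responsive transcription factor) and 1 vector control library. The knockdown used lentivirus packaged in HEK 293T cells, a human embryonic kidney line, and the labels name no hairpin, clone or selection. In the treatment comparisons the lines serve as replicates, with 1 library per line and arm. In contrasts between lines, a line is represented by its treated and its control library of that experiment. Those are not independent cultures of 1 condition. All p-values thus measure the spread between these libraries and not between cultures of 1 line.

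**Figure D1:**
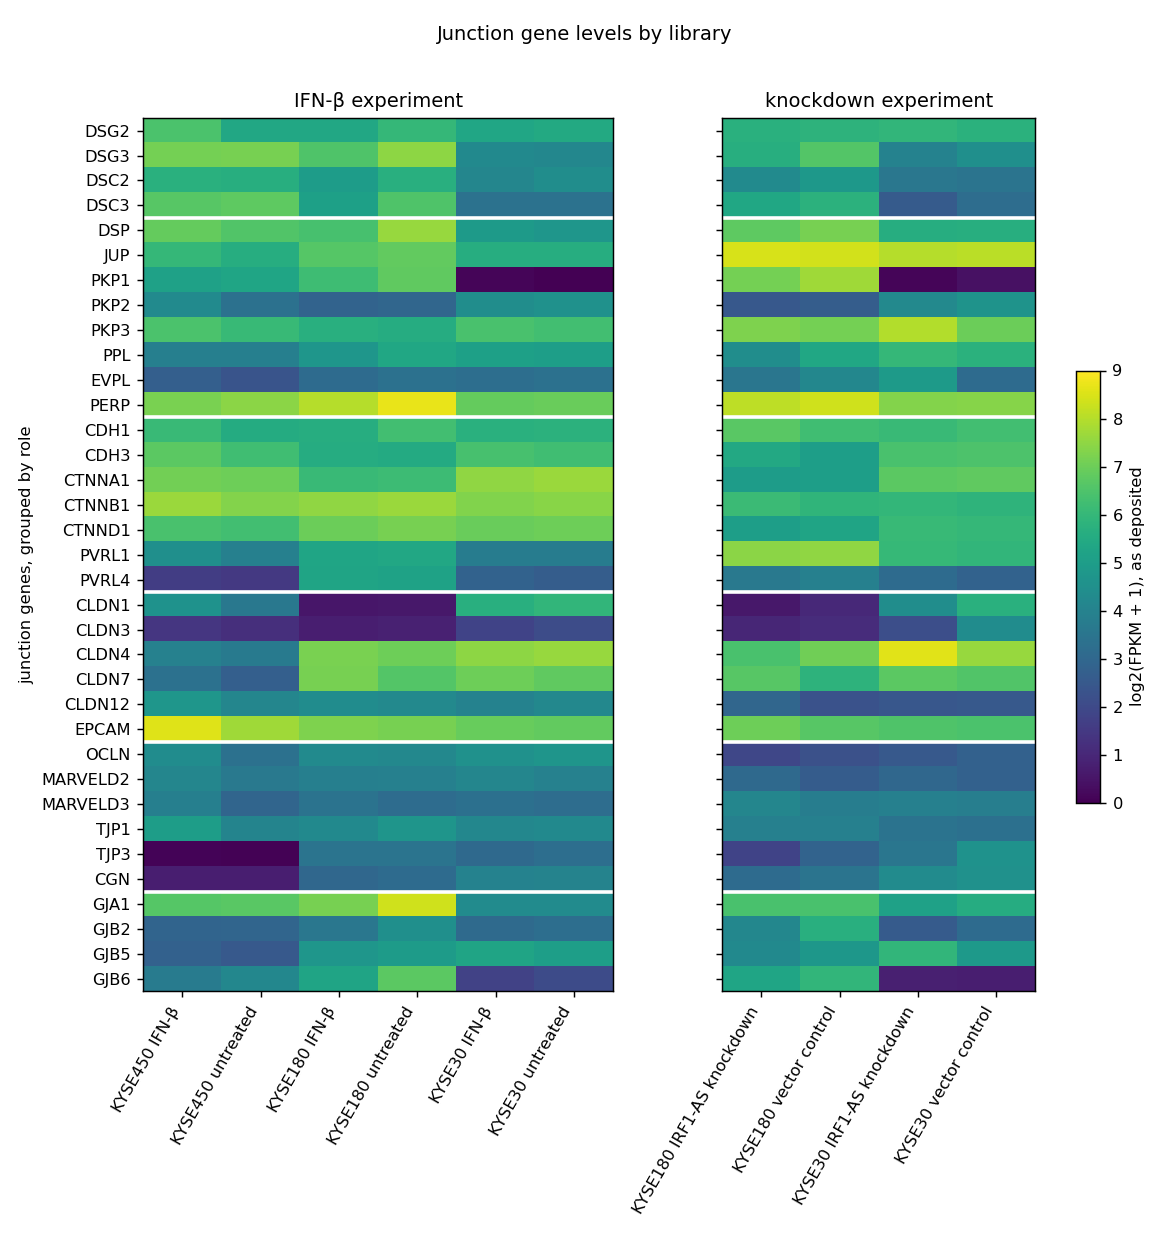
Level of the 35 junction genes, as log2(FPKM + 1) of the deposited values, in the 6 libraries of the IFN-β experiment (left) and the 4 of the knockdown experiment (right); white lines part the desmosomal cadherins, desmosomal plaque, adherens junction, claudins with EPCAM, other tight junction and gap junction genes from top to bottom. PKP1 is near 0 in all 4 KYSE30 libraries, CLDN1 in the 4 KYSE180 libraries and TJP3 in both KYSE450 libraries, and the colours may be compared within a panel only, since the experiments were normalized apart.

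Read depth is unknown, since the tables hold no counts; per library, 10993 to 11887 named genes of the IFN-β tables and 11703 to 12335 genes of the knockdown tables stood at 1 FPKM or more. IFI6 and ISG15, genes induced by interferon, stood at 2195 and 1571 FPKM after IFN-β against 6.68 and 18.4 FPKM untreated in KYSE450, and were called higher over the 3 lines. C5orf56, the annotated antisense gene of IRF1, stood at 0.948 FPKM after knockdown and 1.08 FPKM with vector in KYSE180, and at 3.04 FPKM after knockdown and 6.86 FPKM with vector in KYSE30, a difference that did not pass the test (log2 fold change -0.56 ± 0.32, SE, n = 2 lines, limma adjusted p = 0.821). IRF1 itself stood at 1.2 FPKM after knockdown and 1.83 FPKM with vector in KYSE180, and at 5.88 and 31.1 FPKM in KYSE30. The KYSE30 libraries differed between the experiments in keratins: KRT5 stood at 228 and 117 FPKM after knockdown and with vector, but at 1.37 and 2.91 FPKM after IFN-β and untreated. Of the fibroblast, leukocyte and endothelial markers, summed FPKM per library stayed within 0.34 to 5.42, 0.196 to 1.44 and 0.0832 to 1.18. KRT8 and KRT18 were high in every library, while KRT19 stood at 2.61 and 0.72 FPKM in KYSE450 after IFN-β and untreated.

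Junctions join epithelial cells into a sheet. In desmosomes, cadherins of the desmoglein and desmocollin families bind between cells and are tied through plakoglobin, plakophilins and desmoplakin to keratin filaments, a link on which stratified squamous epithelia such as the esophageal lining depend. Adherens junctions use classical cadherins and nectins, linked through catenins to actin. Claudins and occludin form the seal of the tight junction, scaffolded by zonula occludens proteins and cingulin, and connexins form gap junction channels that let small molecules pass between cells.

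Promoters are shown for 8 members with a RefSeq window that lay in the same direction from their control in every line. None of the 8 was called, and the difference could be small in a single line. DSC3 in KYSE30 stood at 9.45 FPKM after IFN-β and 9.61 FPKM untreated. By log2 fold change over the lines, the 8 are CLDN7, the highest after IFN-β, and the 3 lowest after it (GJB6, DSC3 and PERP). The other 4 are the lowest after knockdown (CLDN3, TJP3, GJB2 and CLDN1), and the choice was made after their values were seen. Each window runs from 250 bases before to 50 bases after the start of the gene in RefSeq (GRCh38.p14), 5′ to 3′ on the gene's own strand. The windows are CLDN7 chr17:7263164-7263463 on the minus strand, GJB6 chr13:20230929-20231228 on the minus strand, DSC3 chr18:31042693-31042992 on the minus strand, PERP chr6:138107370-138107669 on the minus strand, CLDN3 chr7:73770221-73770520 on the minus strand, TJP3 chr19:3708134-3708433 on the plus strand, GJB2 chr13:20192889-20193188 on the minus strand and CLDN1 chr3:190322397-190322696 on the minus strand. Capitals mark matches, on either strand, to the interferon-stimulated response element core, GAAA, any 2 bases and GAAA again (CLDN7), or to the E-box CAGGTG that Snail and ZEB repressors bind (CLDN3 and GJB2).
CLDN7: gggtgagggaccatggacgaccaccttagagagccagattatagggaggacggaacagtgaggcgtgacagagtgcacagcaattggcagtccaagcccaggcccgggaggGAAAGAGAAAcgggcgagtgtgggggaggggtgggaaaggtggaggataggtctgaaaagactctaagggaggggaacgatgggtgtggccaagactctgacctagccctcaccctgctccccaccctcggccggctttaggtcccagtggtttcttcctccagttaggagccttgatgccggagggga
GJB6: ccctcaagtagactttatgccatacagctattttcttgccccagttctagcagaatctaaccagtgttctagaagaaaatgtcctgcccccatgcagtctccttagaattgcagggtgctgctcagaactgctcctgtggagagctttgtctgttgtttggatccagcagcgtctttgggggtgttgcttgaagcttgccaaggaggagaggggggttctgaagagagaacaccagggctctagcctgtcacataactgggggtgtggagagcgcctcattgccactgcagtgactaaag
DSC3: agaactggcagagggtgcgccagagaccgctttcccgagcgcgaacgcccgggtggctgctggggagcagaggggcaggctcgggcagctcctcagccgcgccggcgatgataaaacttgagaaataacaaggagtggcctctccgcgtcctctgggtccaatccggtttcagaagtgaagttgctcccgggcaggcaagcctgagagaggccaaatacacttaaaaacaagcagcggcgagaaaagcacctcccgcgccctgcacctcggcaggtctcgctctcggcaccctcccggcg
PERP: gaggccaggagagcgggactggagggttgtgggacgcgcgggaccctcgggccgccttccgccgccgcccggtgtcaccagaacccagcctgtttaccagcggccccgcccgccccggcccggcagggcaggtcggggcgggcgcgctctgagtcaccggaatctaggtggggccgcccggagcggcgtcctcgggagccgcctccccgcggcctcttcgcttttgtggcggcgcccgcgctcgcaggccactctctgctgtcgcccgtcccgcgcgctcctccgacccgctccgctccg
CLDN3: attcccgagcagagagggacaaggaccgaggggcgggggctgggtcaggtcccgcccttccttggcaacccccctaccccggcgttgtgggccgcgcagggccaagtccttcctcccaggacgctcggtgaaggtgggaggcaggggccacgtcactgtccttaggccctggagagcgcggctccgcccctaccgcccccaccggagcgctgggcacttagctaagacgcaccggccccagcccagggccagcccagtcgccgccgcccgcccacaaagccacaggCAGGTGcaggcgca
TJP3: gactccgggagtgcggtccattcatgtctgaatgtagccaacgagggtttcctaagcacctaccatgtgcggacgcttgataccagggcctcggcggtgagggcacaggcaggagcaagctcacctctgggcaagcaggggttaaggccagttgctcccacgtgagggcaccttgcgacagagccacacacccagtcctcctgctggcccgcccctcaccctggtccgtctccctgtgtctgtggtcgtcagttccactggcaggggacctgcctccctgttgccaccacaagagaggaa
GJB2: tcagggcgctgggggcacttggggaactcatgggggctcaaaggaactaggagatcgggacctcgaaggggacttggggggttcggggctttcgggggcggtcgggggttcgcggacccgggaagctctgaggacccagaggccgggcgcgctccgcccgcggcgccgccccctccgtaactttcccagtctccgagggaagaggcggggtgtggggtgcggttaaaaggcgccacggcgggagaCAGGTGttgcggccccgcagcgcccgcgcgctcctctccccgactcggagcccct
CLDN1: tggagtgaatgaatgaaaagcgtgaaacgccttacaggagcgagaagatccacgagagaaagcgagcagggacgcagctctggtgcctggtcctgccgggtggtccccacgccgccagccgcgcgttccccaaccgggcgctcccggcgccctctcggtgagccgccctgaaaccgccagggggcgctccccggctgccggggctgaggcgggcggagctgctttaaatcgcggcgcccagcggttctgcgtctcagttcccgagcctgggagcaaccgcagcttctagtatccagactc
RefSeq windows were found for 24 of the 35 members. The response element core was held by 1 of the 24 (4.17%), against 3.65% of all 27305 windows, and the GAS element TTCNNNGAA by 1 (CLDN12, 4.17% against 7.88%). The E-box was held by 8 (33.3% against 20.6%): DSG2, DSC2, DSP, PVRL4, CLDN3, OCLN, TJP1 and GJB2. The grainyhead core AACCGGTT was in none of them, and in 0.117% of all windows. In CLDN7 the match began 139 bases before the start in GJB2 5 bases before it and in CLDN3 at base 37 after it. A match describes letters in these windows only.

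Junction genes were called between the cell lines and not between treated and control cells. For each pair of lines a fold change was fitted with limma on log2(scaled FPKM + 1) with treatment as a covariate, where scaling divides by a median-of-ratios factor, and a gene was called at an adjusted p under 0.05. In KYSE450 over KYSE30, 8 members were higher and 14 lower (22 of 35, 62.9%), while 46.5% of the 12428 genes tested were called (21.8% higher and 24.7% lower). In KYSE180 over KYSE30, 12 were higher and 9 lower in the IFN-β experiment, where 45.7% of all genes were called (22.8% higher and 22.9% lower), and 10 were higher and 9 lower in the knockdown experiment (54.3%), where 28.0% of 12799 genes were (14.8% and 13.2%). In KYSE450 over KYSE180, 9 were higher and 16 lower (71.4%), against 49.0% of all genes (23.0% and 26.0%). All 35 members passed the filter of 1 FPKM. In the knockdown experiment PKP1 and GJB6 passed it through KYSE180 alone, so they entered that test only because they were high in KYSE180. In the IFN-β experiment PKP1, CLDN1, CLDN3, TJP3 and CGN reached 1 FPKM only in the lines where they were high. A fit with no filter on low values is therefore given for PKP1, CLDN1, TJP3 and CGN, and for GJB6 in the knockdown experiment. The calls of CLDN3 in the IFN-β experiment held in that fit. As deposited, without scaling, the median named gene differed by 0.19 (log2) in KYSE180 over KYSE30 and by -0.14 in KYSE450 over KYSE180, against 0.01 and -0.02 after scaling; fold changes below are after scaling.

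The desmosomal cadherins split into 3 genes low in KYSE30 and 1 with no call. DSC3, desmocollin-3 of the basal squamous layers, stood at 101 and 108 FPKM in KYSE450, 33.8 and 92.0 FPKM in KYSE180 and 9.45 and 9.61 FPKM in KYSE30, each after IFN-β and untreated in that order. It stood at 40.3 and 53.8 FPKM in KYSE180 and 5.03 and 8.19 FPKM in KYSE30, each after knockdown and with vector. KYSE30 thus lay below every library of the other lines, with a log2 fold change of 3.27 ± 0.32 for KYSE450 over KYSE30, 2.25 ± 0.32 for KYSE180 over KYSE30 in the first experiment and 2.61 ± 0.20 in the second (SE, limma adjusted p = 0.00112, 0.00356 and 0.00251). DSG3, desmoglein-3, an autoantigen of pemphigus, stood at 137 and 143 FPKM in KYSE450, 90.9 and 178 FPKM in KYSE180 and 18.2 and 17.0 FPKM in KYSE30, after IFN-β and untreated. Its log2 fold change over KYSE30 was 2.87 ± 0.25 in KYSE450 and 2.59 ± 0.25 in KYSE180 (adjusted p = 0.000563 and 0.000758). DSC2 followed with 1.37 ± 0.15 and 0.88 ± 0.15. DSG2, the desmoglein of simple as well as stratified epithelia, stood between 39.4 and 85.5 FPKM in the first experiment and between 51.2 and 59.3 FPKM in the second, and was called between no lines. These genes lie in 1 cluster on chromosome 18 (GRCh38), in the order DSC3, DSC2, DSC1, DSG1, DSG4, DSG3, DSG2, and DSG3, which differed between lines, ends 19340 bases before DSG2, which did not pass.

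Among plaque genes, PKP1 gave the largest difference of all members in each contrast with KYSE30. PKP1, plakophilin-1, which strengthens desmosomes in stratified epithelia (ENSG00000081277, chr1:201283452-201332993, plus strand, GENCODE 29 on GRCh38), stood at 34.3 and 38.6 FPKM in KYSE450, 73.5 and 112 FPKM in KYSE180 and 0.10 and 0.01 FPKM in KYSE30, after IFN-β and untreated. In the knockdown experiment it stood at 138 and 211 FPKM in KYSE180 and at 0.0917 and 0.311 FPKM in KYSE30, after knockdown and with vector. The gene was near 0 in all 4 KYSE30 libraries and no library of the other lines came near them. The log2 fold change was 5.17 ± 0.23 for KYSE450 over KYSE30 and 6.33 ± 0.23 for KYSE180 over KYSE30 in the first experiment, and 7.12 in the second. These errors are from the limma fit with no filter, in which the adjusted p was 0.00136, 0.00104 and 0.0273. The other plakophilins ran the other way. PKP2, plakophilin-2, stood at 18.7 and 9.36 FPKM in KYSE450, 6.34 and 6.87 FPKM in KYSE180 and 20.5 and 22.2 FPKM in KYSE30 (KYSE180 over KYSE30 -1.73 ± 0.19, adjusted p = 0.00101), and PKP3 was lower in KYSE180 too, by -0.92 ± 0.15.

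DSP, desmoplakin, the link to keratin filaments, stood at 117 and 93.9 FPKM in KYSE450, 81.7 and 195 FPKM in KYSE180 and 28.7 and 25.8 FPKM in KYSE30, after IFN-β and untreated, and was lowest in KYSE30 (1.85 ± 0.33 for KYSE450 and 1.98 ± 0.33 for KYSE180 over KYSE30, limma adjusted p = 0.00748 and 0.0059). JUP, plakoglobin, and PERP, a membrane protein of desmosomes and a p53 target, were highest in KYSE180. PERP was the most abundant plaque gene of the first experiment in all 6 libraries, at 143 and 172 FPKM in KYSE450, 257 and 414 FPKM in KYSE180 and 116 and 122 FPKM in KYSE30. PPL and EVPL, periplakin and envoplakin, which tie the cornified envelope to desmosomes, were lowest in KYSE450: PPL at 13.7 and 13.7 FPKM there, against 25.8 and 40.5 FPKM in KYSE180 and 33.6 and 32.3 FPKM in KYSE30.

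Of the 7 adherens junction genes, 3 were called in KYSE450 over KYSE30, 4 in KYSE180 over KYSE30 and 5 in KYSE450 over KYSE180 of the first experiment. Of all genes tested, 46.5%, 45.7% and 49.0% were called in these contrasts. CDH1 and CTNNB1 were called between no lines. CDH1, E-cadherin, stood at 67.7 and 45.2 FPKM in KYSE450, 48.3 and 76.2 FPKM in KYSE180 and 51.9 and 54.1 FPKM in KYSE30, after IFN-β and untreated, so the lines overlapped. CDH3, P-cadherin, which lies 14608 bases upstream of CDH1 on chromosome 16, was lower in KYSE180 than in KYSE30 in both experiments (-0.96 ± 0.14 and -1.27 ± 0.22, limma adjusted p = 0.0027 and 0.0145). CTNNA1, α-catenin, was lower there as well, at 68.0 and 71.8 FPKM in KYSE180 against 179.9 and 200.1 FPKM in KYSE30, after IFN-β and untreated (-1.62 ± 0.17, adjusted p = 0.000807). CTNND1, p120-catenin, was lowest in KYSE450. The nectins were higher in KYSE180 than in KYSE30 in the first experiment, opposite to CDH3 and CTNNA1. In the second experiment PVRL1 was called in that contrast and PVRL4 was not. PVRL4 stood at 2.13 and 1.81 FPKM in KYSE450, 37.1 and 34.96 FPKM in KYSE180 and 6.12 and 5.30 FPKM in KYSE30, an order in which each line differed from both others, and PVRL1 was highest in KYSE180 (1.37 ± 0.14 over KYSE30, adjusted p = 0.000772).

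Claudins were low in KYSE180 or KYSE450, depending on the gene. CLDN1, a claudin needed for the skin barrier in mice, stood at 23.1 and 11.2 FPKM in KYSE450, 0.47 and 0.51 FPKM in KYSE180 and 49.6 and 59.4 FPKM in KYSE30, after IFN-β and untreated. In the knockdown experiment it stood at 0.490 and 1.05 FPKM in KYSE180, against 20.2 and 51.3 FPKM in KYSE30. KYSE180 was thus low in all 4 of its libraries, with a log2 fold change over KYSE30 of -5.33 ± 0.22 in the first experiment and -4.30 ± 0.31 in the second (limma adjusted p = 0.00122 and 0.0324 with no filter). In KYSE450 the low claudins were CLDN4 and CLDN7. CLDN7 stood at 9.18 and 5.57 FPKM in KYSE450, 143 and 95.0 FPKM in KYSE180 and 127 and 111 FPKM in KYSE30. CLDN4 stood at 14.7 and 11.8 FPKM in KYSE450, 144 and 129 FPKM in KYSE180 and 178 and 197 FPKM in KYSE30. KYSE450 over KYSE30 came to -3.94 ± 0.16 for CLDN7 and -3.79 ± 0.16 for CLDN4 (adjusted p = 4.58e-05 for both). EPCAM, a membrane protein that binds claudin-7, was by contrast highest in KYSE450, at 375 and 207 FPKM, against 151 and 142 FPKM in KYSE180 and 120 and 114 FPKM in KYSE30. CLDN3, whose gene lies 29271 bases from CLDN4 on chromosome 7, stood between 0.67 and 3.26 FPKM in the first experiment and was lowest in KYSE180. CLDN12 was called between no lines.

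Of the other tight junction genes, the scaffold genes TJP3 and CGN were low in KYSE450. TJP3, zonula occludens-3, stood at 0.07 and 0.03 FPKM in KYSE450, 9.95 and 10.1 FPKM in KYSE180 and 7.45 and 8.46 FPKM in KYSE30, after IFN-β and untreated (KYSE450 over KYSE30 -3.17 ± 0.15, limma adjusted p = 0.0014 with no filter). CGN, cingulin, stood at 0.68 and 0.70 FPKM in KYSE450, 6.95 and 7.81 FPKM in KYSE180 and 14.9 and 15.4 FPKM in KYSE30 (-3.32 ± 0.14, adjusted p = 0.00127 with no filter). TJP1, zonula occludens-1, and the occludin relatives MARVELD2 (tricellulin) and MARVELD3 were called between no lines, and OCLN, occludin, was lower in KYSE450 than in KYSE30 (-0.82 ± 0.19, adjusted p = 0.0153). Exons of MARVELD3 overlap PHLPP2 on the other strand over 1068 bases, 16.6% of its exonic length, and those of CLDN7 overlap AC003688.1 over 269 bases on the same strand and ELP5 over 38 bases on the other. Exons of CDH1, CDH3, CLDN12, CTNNA1, CTNND1, DSG2 and PVRL1 overlap other genes as well. The largest single share among these was 11.1%, for CDH3 with AC126773.2 on the other strand. Whether counting used strand is not stated in the labels, so reads in such overlaps cannot be told apart.

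Connexins were highest in KYSE180 with 1 exception. GJB6, connexin-30 of skin and inner ear, stood at 12.4 and 17.0 FPKM in KYSE450, 37.1 and 106 FPKM in KYSE180 and 2.44 and 3.13 FPKM in KYSE30, after IFN-β and untreated. With 37.8 and 59.1 FPKM in KYSE180 against 0.716 and 0.673 FPKM in KYSE30 in the second experiment, its log2 fold change was 3.91 ± 0.28 in the first (limma adjusted p = 0.000304) and 4.79 in the second (adjusted p = 0.0275 in the fit with no filter). GJA1, connexin-43, the most widely expressed connexin, stood at 98.4 and 104 FPKM in KYSE450, 143 and 324 FPKM in KYSE180 and 19.2 and 19.2 FPKM in KYSE30. GJB2, connexin-26, whose gene lies 28951 bases from GJB6 on chromosome 13, was higher in KYSE180 by 0.67 ± 0.21 in the first experiment and by 1.98 ± 0.28 in the second. The exception was GJB5, connexin-31.1, at 5.93 and 4.65 FPKM in KYSE450, 25.5 and 29.5 FPKM in KYSE180 and 37.5 and 32.2 FPKM in KYSE30, lowest in KYSE450 (-2.58 ± 0.16 over KYSE30, adjusted p = 0.000153).

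Set in order, 9 members were lower in KYSE450 than in both other lines (25.7%, against 13.1% of all genes tested): CGN, CLDN4, CLDN7, CTNND1, EVPL, GJB5, PPL, PVRL4 and TJP3. Higher in KYSE450 than in both others were DSC2, DSC3 and EPCAM (8.57%, against 10.9%). KYSE180 was highest for 8 members (22.9%, against 12.6%), namely GJA1, GJB2, GJB6, JUP, PERP, PKP1, PVRL1 and PVRL4, and lowest for 6 (17.1%, against 11.5%), namely CDH3, CLDN1, CLDN3, CTNNA1, PKP2 and PKP3. KYSE30 was lowest for 7 (20.0%, against 10.2%), of which DSC2, DSC3, DSG3, DSP and PKP1 are desmosomal and GJA1 and GJB6 are connexins. It was highest for 7 (20.0%, against 11.2%), of which CLDN1, CLDN3, CLDN4 and CGN are tight junction genes, the rest being CTNNA1, GJB5 and PKP2. No call between any lines was made for 7 members (20.0%, against 28.1%). These counts include PKP1, CLDN1, CLDN3, TJP3 and CGN, which passed the filter only through the lines where they were high. No count was made without them.

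Markers of squamous epithelium differed between the lines as well, while the junction genes ran both ways. Over KYSE30, all 5 squamous markers were called higher in KYSE450 and in KYSE180 in the first experiment, with summed levels of 4780 and 6120 FPKM in KYSE450, 3350 and 5120 FPKM in KYSE180 and 141 and 138 FPKM in KYSE30, after IFN-β and untreated. In the second experiment 3 of the 5 were called, with sums of 6280 and 8680 FPKM in KYSE180 and 841 and 607 FPKM in KYSE30, after knockdown and with vector. Squamous markers split in KYSE450 over KYSE180 of the first experiment, with 2 of the 5 called higher and 1 lower. Simple epithelium markers differed too: KRT8, KRT18 and KRT19 were called lower in KYSE180 over KYSE30 in the first experiment (median log2 fold change -1.43) and KRT8 and KRT18 in the second (median -1.37 over the 3). KRT19 was lower in KYSE450 than in both other lines. The part of either marker list in the line differences was not tested.

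The difference of KYSE180 over KYSE30 was measured in both experiments, which share no library. Of 35 members, 31 had the same sign (88.6%, against 74.5% of the 10055 named genes tested in both), and 17 were called in both with the same sign. These are 81.0% of the 21 calls in the first experiment and 89.5% of the 19 in the second, against 39.1% and 76.0% for all named genes. The 17 include PKP1 and GJB6, which passed the knockdown filter through KYSE180 alone; without them 15 of 33 were called in both with the same sign (78.9% and 88.2% of the calls). KYSE30 cells differed between the experiments in KRT5, as given above, and whether this bears on the agreement was not tested. TJP3 was the clearest disagreement: it was called lower in KYSE180 in the second experiment (-1.77 ± 0.21, limma adjusted p = 0.00585) but not in the first (0.12 ± 0.17, adjusted p = 0.576). It stood at 2.53 and 6.35 FPKM in KYSE180 and 10.5 and 22.95 FPKM in KYSE30, after knockdown and with vector. GJA1 was called in both, with 3.23 ± 0.27 in the first and 1.01 ± 0.21 in the second.

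**Figure D2:**
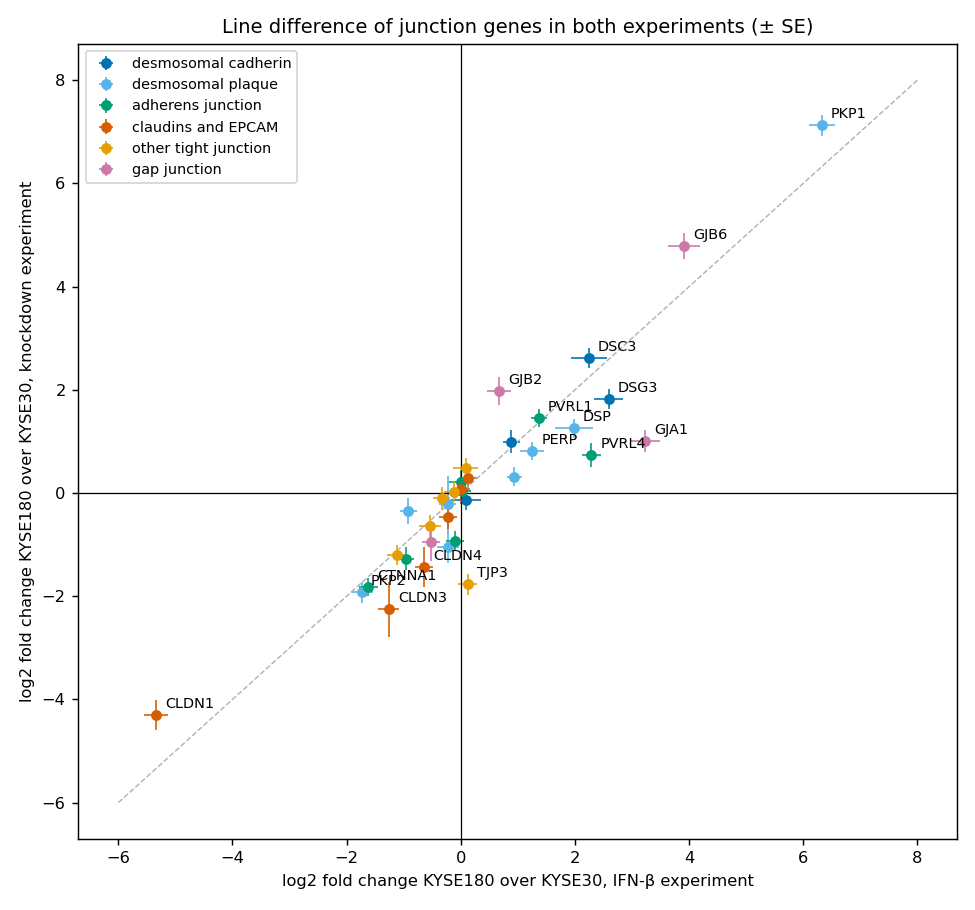
Log2 fold change of KYSE180 over KYSE30 for the 35 junction genes in the IFN-β experiment (x axis) and the knockdown experiment (y axis), with bars of ± 1 SE from limma and colours by role; the dashed line marks equal values. Points run from CLDN1 at -5.33 and -4.30 to PKP1 at 6.33 and 7.12, and TJP3 lies apart at 0.12 and -1.77.

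Several of these calls rest on single libraries or settings. In KYSE450 over KYSE180, 16 of 25 calls held in every alternative fit, and the other 9 were all lost without the IFN-β KYSE450 library, with adjusted p between 0.051 and 0.196. They were CLDN3, CTNND1, DSC2, DSC3, EVPL, GJA1, GJB2, PERP and PKP1. Of these, 6 (CLDN3, DSC2, DSC3, EVPL, GJA1 and GJB2) were lost without the untreated KYSE450 library as well, DSC2 reached 0.327 without scaling, and leaving out any other library lost 3 or 4 of the 9. In KYSE450 over KYSE30, 14 of 22 held. Without the IFN-β KYSE30 library CLDN3, CTNNA1, CTNND1, EPCAM, EVPL and PKP2 were lost (0.0522 to 0.246), and without the untreated KYSE30 library CLDN3, CTNNA1, CTNND1, EVPL, OCLN and PKP2 (0.0524 to 0.199). Without the IFN-β KYSE450 library CLDN3, CTNNA1, CTNND1 and DSP were lost (0.0701 to 0.158), and without the untreated KYSE450 library CLDN3, EVPL, OCLN and PKP2 (0.0524 to 0.174). In KYSE180 over KYSE30 of the first experiment, 13 of 21 held. Without the untreated KYSE30 library CLDN4, DSC2, GJB2, GJB5, JUP and PERP were lost (0.0591 to 0.345), and without the IFN-β KYSE30 library CDH3, CLDN4, GJB5 and PKP3 (0.0506 to 0.374). GJB5 was lost without any 1 of the 6 libraries, and GJB5 and CLDN4 without scaling (0.401 and 0.148). GJB2 was lost without any untreated library. In the knockdown experiment 8 of 19 held, and TJP3 was lost without the treatment term (0.0574). The other 10 were lost without the filter on low values, with adjusted p between 0.0525 for DSP and 0.134 for CLDN4.

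After IFN-β no junction gene passed the test, although the desmosomal cadherins and the connexins lay lower by value. Over the 3 lines 0 of 35 members were called, and of all 12428 genes 52 were called (0.418%), all of them higher. Without scaling 237 genes were called, 193 of them higher, and again no member. At an unadjusted p under 0.05 stood 7 members (20.0%, against 9.72% of all genes), namely GJB6, DSC2, PERP, GJB2, GJA1 and DSC3, which were lower by value, and CLDN7, which was higher. The median log2 fold change was -0.45 over the 4 desmosomal cadherins, -0.22 over the 8 plaque genes and -0.52 over the 4 connexins, against -0.09 over all 35 members and -0.01 over all genes. The 4 desmosomal cadherins and the 4 connexins all had fold changes below 0 after scaling, with DSG2 (-0.06 ± 0.21, SE) and GJB5 (-0.02 ± 0.13) near 0. In single lines some were higher after IFN-β, such as DSG2 in KYSE450 and GJB5 in KYSE30. As deposited, where the median named gene stood at 0.12, DSG2 and GJB5 were above 0 and the medians were -0.30 and -0.39. Claudins with EPCAM and the other tight junction genes had medians of 0.05 and 0.04. Bulk libraries do not tell fewer cells with a transcript from less of it per cell.

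GJB6 had the largest difference among members lower in every line. It stood at 12.4 FPKM after IFN-β and 17.0 FPKM untreated in KYSE450, at 37.1 and 106 FPKM in KYSE180 and at 2.44 and 3.13 FPKM in KYSE30, each pair with the IFN-β library the lower (log2 fold change -0.87 ± 0.23, SE, n = 3 lines, limma unadjusted p = 0.00925, adjusted p = 0.387). The RefSeq window of GJB6 printed above held none of the motifs searched. DSC3 stood at 101 and 108 FPKM in KYSE450, 33.8 and 92.0 FPKM in KYSE180 and 9.45 and 9.61 FPKM in KYSE30, a log2 fold change of -0.66 ± 0.26 (adjusted p = 0.512). Its ratio of deposited values was -1.44 in KYSE180, -0.104 in KYSE450 and -0.024 in KYSE30 on the log2 scale, and scaling brought KYSE450 to -0.61. GJB2 stood at 6.52 and 6.61 FPKM, 10.9 and 21.5 FPKM and 7.67 and 8.44 FPKM in the same order (-0.48 ± 0.17, adjusted p = 0.499). PERP came to -0.49 ± 0.17 and DSC2 to -0.45 ± 0.12, but as deposited DSC2 stood slightly higher after IFN-β in KYSE450, at 51.5 against 49.1 FPKM.

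Higher by value in every line were CLDN7, MARVELD3, EPCAM and CDH3. CLDN7, whose window holds the response element core, stood at 9.18 FPKM after IFN-β and 5.57 FPKM untreated in KYSE450, at 143 and 95.0 FPKM in KYSE180 and at 127 and 111 FPKM in KYSE30 (0.34 ± 0.13, limma adjusted p = 0.505). MARVELD3 came to 0.30 ± 0.13, EPCAM to 0.19 ± 0.13 and CDH3 to 0.08 ± 0.11, and none of these exceeded the test's threshold.

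**Figure D3:**
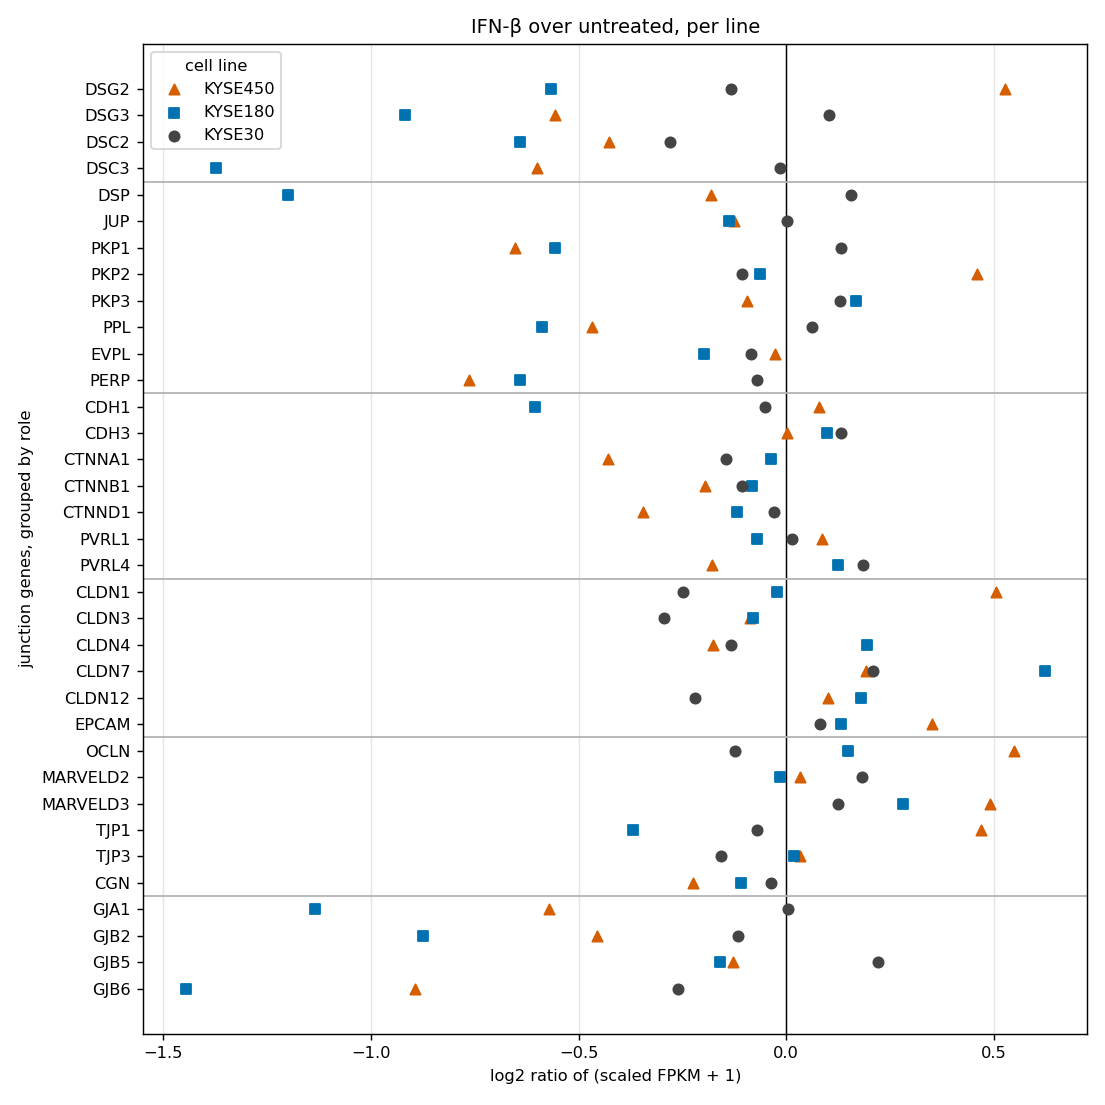
Log2 ratio of (scaled FPKM + 1), IFN-β over untreated, for each junction gene in KYSE450 (triangles), KYSE180 (squares) and KYSE30 (circles), 1 pair of libraries per point; grey lines part the roles. KYSE180 points reach -1.44 for GJB6 and -1.37 for DSC3, while the KYSE30 points stay between -0.29 and 0.22.

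KYSE180 gave the widest within-line differences, with 4 members at least 2-fold lower after IFN-β (12.1% of the 33 members at an average of 1 FPKM, against 4.83% of all such genes) and 0 at least 2-fold higher (3.91% of genes). They were GJB6 (log2 ratio -1.47), DSC3 (-1.40), DSP (-1.21), at 81.7 FPKM after IFN-β and 195 FPKM untreated, and GJA1 (-1.14), at 143 and 324 FPKM. In KYSE450 and KYSE30 no member passed 2-fold in either direction after scaling, where 3.59% of genes in KYSE450 and 2.21% in KYSE30 were higher and 2.96% and 0.992% lower. As deposited, 4 members passed 2-fold higher in KYSE450 (12.1%, against 12.0% of all genes). With 1 library per line and arm, the difference between lines in response could not be tested. Of the 5 squamous markers 4 were lower by value after IFN-β and none was called, and their sum was lower after IFN-β in KYSE450 (4780 against 6120 FPKM) and KYSE180 (3350 against 5120 FPKM) but not in KYSE30 (141 against 138 FPKM). Their part in the result was not tested.

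After IRF1-AS knockdown no junction gene was called, and none of all 12799 genes was (0.0%, limma, with 0.195 as the smallest adjusted p); 833 genes (6.51%) had an unadjusted p under 0.05. At an unadjusted p under 0.05 stood 5 members (14.3%), all lower by value: TJP3, DSG3, GJB2, CLDN1 and DSC3. The median over the 35 members was -0.09, against -0.02 over all genes, with 14 members above 0 and 21 below. By role it ran from -0.38 for the desmosomal cadherins to 0.15 for claudins with EPCAM.

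TJP3 came closest to the threshold among members. It stood at 2.53 FPKM after knockdown and 6.35 FPKM with vector in KYSE180, and at 10.5 and 22.95 FPKM in KYSE30, a similar step in each line (log2 fold change -1.09 ± 0.21, SE, n = 2 lines, limma unadjusted p = 0.0032, adjusted p = 0.693). GJB2 stood at 16.8 and 49.9 FPKM in KYSE180 and at 5.07 and 7.83 FPKM in KYSE30 (-1.06 ± 0.28, adjusted p = 0.75). CLDN1 stood at 0.490 and 1.05 FPKM in KYSE180 and at 20.2 and 51.3 FPKM in KYSE30 (-0.92 ± 0.30, adjusted p = 0.752). CLDN3, with the lowest fold change (-1.23 ± 0.53, adjusted p = 0.790), stood at 0.97 and 1.23 FPKM in KYSE180 and at 3.49 and 19.8 FPKM in KYSE30. DSG3 came to -0.76 ± 0.20 (adjusted p = 0.75). Higher by value in both lines, with no call, were PKP3 (0.54 ± 0.25), CLDN7 (0.48 ± 0.24), MARVELD2 (0.30 ± 0.22), MARVELD3 (0.17 ± 0.20) and EPCAM (0.17 ± 0.19).

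**Figure D4:**
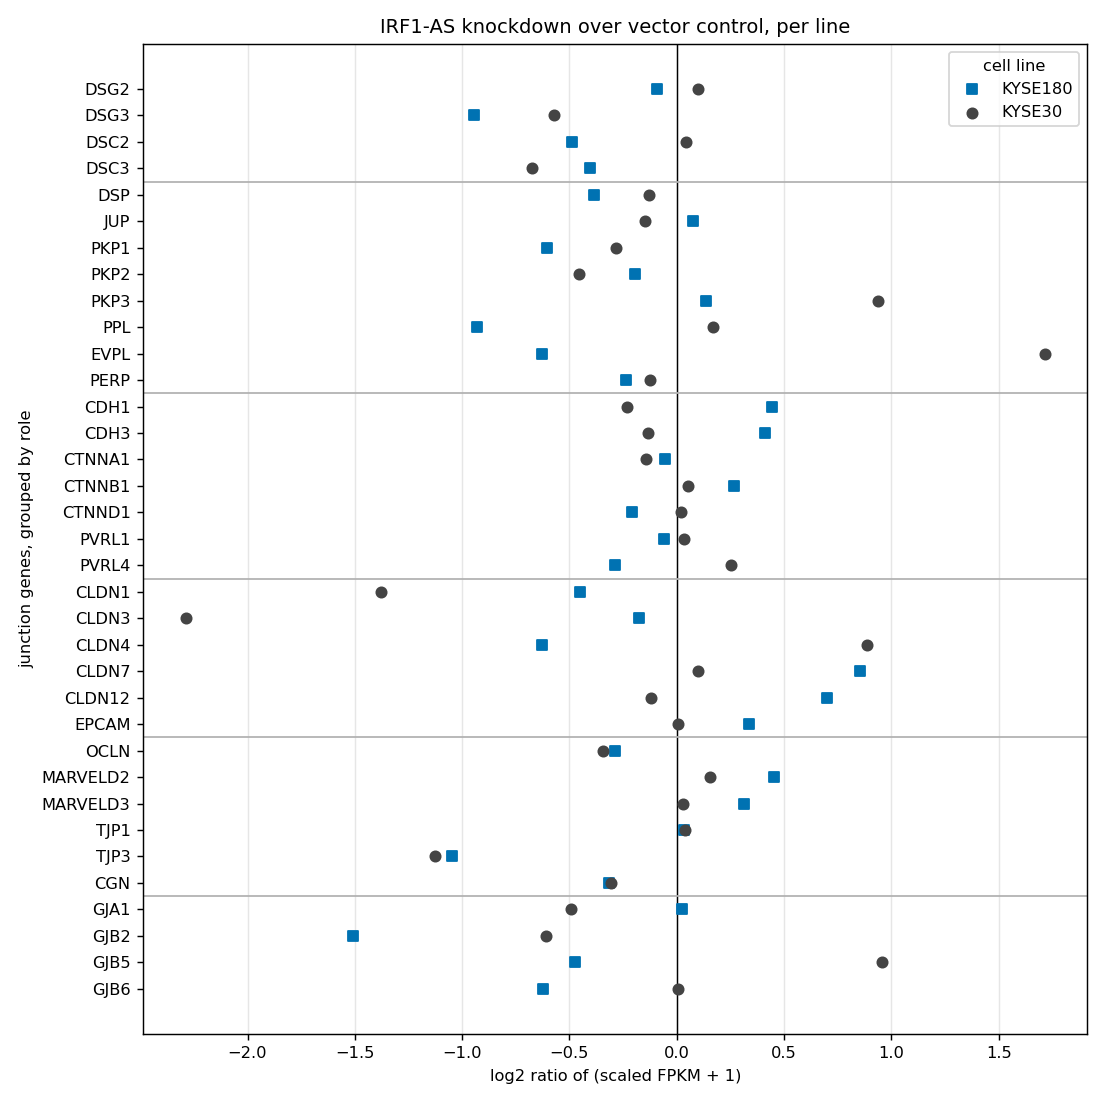
Log2 ratio of (scaled FPKM + 1), IRF1-AS knockdown over vector control, for each junction gene in KYSE180 (squares) and KYSE30 (circles), 1 pair of libraries per point; grey lines part the roles. TJP3 is near -1 in both lines (-1.05 and -1.13), while EVPL lies at -0.63 in KYSE180 and 1.71 in KYSE30.

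Within KYSE180, GJB2 (-1.57) and TJP3 (-1.32) were at least 2-fold lower after knockdown (5.88% of 34 members, against 4.69% of genes) and 0 members were 2-fold higher (3.12% of genes). Within KYSE30, CLDN3 (-2.58), CLDN1 (-1.42) and TJP3 (-1.20) were lower (9.09% of 33, against 7.46%). EVPL was higher, at 29.2 FPKM after knockdown and 7.79 FPKM with vector (log2 ratio 1.83; 3.03% of members, against 2.25%). As deposited, 3 members passed 2-fold higher there (9.09%, against 2.83%). The KYSE30 libraries also differed in an interferon-induced gene, ISG15, at 346 FPKM after knockdown and 1073 FPKM with vector, against 23.7 and 32.7 FPKM in KYSE180. Its part in the junction values was not tested.

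Across both experiments, 6 members were lower by value in all 5 pairs of treated and control libraries (17.1%, against 6.36% of the 10055 named genes): CGN, CLDN3, CTNNA1, DSC3, GJB2 and PERP. Higher in all 5 were CLDN7, EPCAM and MARVELD3 (8.57%, against 5.06%). These counts and shares use scaled values. As deposited, CTNNA1 and CLDN3 were higher after IFN-β in KYSE450, at 134 against 128 FPKM and at 1.68 against 1.31 FPKM. That leaves 4 members lower in all 5 pairs, and the share of all named genes was not counted on deposited values. No test stands behind these counts, and IFN-β raised C5orf56 while the knockdown was aimed at it (log2 fold change 1.60 ± 0.14 after IFN-β, limma adjusted p = 0.0103).

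Of 57 further junction genes on a separate list, 31 passed the filter in each experiment. None was called after IFN-β or after knockdown. By value, LSR, the lipolysis-stimulated receptor of tricellular junctions, was higher after IFN-β in every line (0.55 ± 0.13, limma adjusted p = 0.271), and DSG1 came to -0.71 ± 0.25 (adjusted p = 0.499). After knockdown F11R, junctional adhesion molecule A, stood at 62.8 FPKM against 20.5 FPKM with vector in KYSE180, and at 44.5 against 15.1 FPKM in KYSE30 (1.5 ± 0.18, unadjusted p = 0.000436, adjusted p = 0.637). Between lines, 8 of the 31 were called higher and 13 lower in KYSE450 over KYSE30, where 46.5% of all genes tested were called. In KYSE450 over KYSE180 the counts were 9 and 10, where 49.0% of all genes were called. In KYSE180 over KYSE30, 9 were higher and 11 lower in the first experiment and 6 and 9 in the second. Of all genes, 45.7% and 28.0% were called there. PARD3, a polarity protein that helps place tight junctions, was low in KYSE30, at 29.9 and 22.8 FPKM in KYSE450, 35.1 and 46.6 FPKM in KYSE180 and 0.48 and 0.30 FPKM in KYSE30, after IFN-β and untreated.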

How the data were processed

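Total RNA of 10 libraries was sequenced. The authors deposited 1 table of FPKM values per library, per the file headers, made on hg38 with TopHat and HTSeq among the tools, per the submitters' processing notes, which give no roles or versions. Annotation, strand setting and depth are not stated in the labels, so no counting interval can be set, and the number of libraries limits the precision. The tables of the 2 experiments were normalized apart and were tested apart.

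FPKM were divided by a median-of-ratios factor per library, because the KYSE450 pair was shifted as deposited (factor 1.17 after IFN-β and 0.825 untreated), and turned into log2(FPKM + 1). Fold changes on this scale understate the change of low genes. Genes at 1 FPKM in 3 of 6 or 2 of 4 libraries entered a limma 3.58.1 model (R 4.3.3, statmod 1.5.0, trend and robust settings) with treatment and cell line as terms, and p-values were adjusted by Benjamini-Hochberg over all genes tested at 0.05. Treated and control libraries were paired by cell line, as the labels give it. Deviations from the group means correlated within pairs with r between 0.841 and 0.91 in the IFN-β experiment and at 0.844 in the knockdown experiment. Alternatives were other scalings, pseudocounts and filters, no block and libraries left out. With no block, treatment comparisons lacked the cell line term and line contrasts lacked the treatment term.

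The members and lists were chosen with earlier results of these data known. Named with full values were members called in a comparison, or, with fewer than 5 called, up to 5 members per direction that moved 1 way in every line. Members at a 2-fold change within a line at an average of 1 FPKM were named as well. Positions and gene IDs are from GENCODE 29 and promoters from RefSeq (GRCh38.p14).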

Additional observations from a re-analysis of the deposited data

Results flagged for a closer look

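After IRF1-AS knockdown 2 junction genes lay in opposite directions in the 2 lines, each by at least 1.5-fold; the difference between the lines was not tested, since each line gave 1 library per arm. CLDN4, a claudin, had a log2 ratio of scaled FPKM of -0.64 in KYSE180 (84.4 FPKM after knockdown and 131.7 FPKM with vector) and of 0.89 in KYSE30 (382 FPKM after knockdown and 196 FPKM with vector). EVPL, envoplakin, had a ratio of -0.67 in KYSE180 (10.7 FPKM after knockdown and 17.1 FPKM with vector) and of 1.83 in KYSE30 (29.2 FPKM after knockdown and 7.79 FPKM with vector).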

How the results depend on the processing

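No junction gene was called after IFN-β or after knockdown under any alternative run, and no named value changed sign while called. For IFN-β over untreated, the 52 genes called became 237 without scaling (193 of them higher), 13 without the filter on low values, 13 without the replicate block, and 27 to 69 with 1 line left out, 27 without KYSE450. With 1 library left out, the genes called in KYSE180 over KYSE30 of the IFN-β experiment ranged from 2770 to 5462 (15 to 20 members), in KYSE450 over KYSE30 from 2749 to 6607 (16 to 23 members) and in KYSE450 over KYSE180 from 4036 to 5470 (16 to 22 members). The lowest counts over all genes came without the IFN-β KYSE30 library in both contrasts with KYSE30, and without the IFN-β KYSE450 library in the other. In KYSE180 over KYSE30 of the knockdown experiment, 3582 genes were called, 1052 without the filter on low values and 2272 when a gene had to average at least 5 FPKM, and 9 members in place of 19 without the filter. The causes were not tested, beyond the change in genes and libraries fitted. Fits that left out a knockdown line had no residual degrees of freedom and gave values with no test. In the line contrasts, the alternative with no block left out the treatment term and kept the lines. It ended the calls of GJB2 (KYSE180 over KYSE30, IFN-β experiment) and of DSC2, DSC3 and GJA1 (KYSE450 over KYSE180). CLDN3 and TJP3 (KYSE180 over KYSE30, knockdown experiment) lost their calls as well, and no other member did.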

Other observations

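Transcription factors known to act on epithelial junction genes were called between the lines and not between treated and control cells. The list and its counts also hold ESRP2, which is a splicing regulator and not a transcription factor. Of 16 on the list, 13 passed the filter in the IFN-β experiment and 14 in the knockdown experiment, and none was called after IFN-β or knockdown, although 12 of 14 were lower by value after knockdown (median log2 fold change -0.46, against -0.02 over all genes). In KYSE180 over KYSE30 of the IFN-β experiment 12 of 13 were called (45.7% of all genes were), 6 higher and 6 lower. EHF (4.15), GRHL3 (2.47), KLF5 (2.44), GRHL1 (2.02), TP63 (1.75) and ESRP2 (0.58) were higher, and TWIST1 (-1.94), ELF3 (-1.37), OVOL2 (-0.86), GRHL2 (-0.78), KLF4 (-0.59) and OVOL1 lower. In the knockdown experiment 8 of 14 were called (28.0% of all genes), EHF, GRHL1, GRHL3 and KLF5 higher and ELF3, GRHL2, KLF4 and OVOL1 lower. ESRP2, OVOL2, TP63 and TWIST1 were not called there. EHF, an ETS factor of epithelia, stood at 1.46 and 2.79 FPKM in KYSE450, 53.1 and 87.8 FPKM in KYSE180 and 3.04 and 1.99 FPKM in KYSE30, after IFN-β and untreated. ELF3, another epithelial ETS factor, stood at 7.67 and 7.86 FPKM in KYSE450, 38.8 and 28.8 FPKM in KYSE180 and 80.6 and 72.9 FPKM in KYSE30. ZEB1 and ZEB2, repressors of CDH1, stood at or under 0.26 FPKM in all 10 libraries. The Snail genes SNAI1 and SNAI2, also on the list, were not among those called in KYSE180 over KYSE30 in either experiment. Their levels are not given here. The relation of the listed genes to the junction genes was not tested.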
